A study of Mus musculus with 2 samples.

Results

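Genes of neuropeptide processing and of the dense-core secretory granule were followed in nuclei of the mouse hypothalamus. The genes were chosen by symbol and not by a rule on their values, though with earlier results of these data known. Each of the 10 genes had 1 row among the 32285 genes of the count matrix. They are Pcsk1 and Pcsk2, which cut peptide precursors, Cpe and Pam, which trim and amidate the fragments, the granins Scg2, Scg3, Chga and Chgb, and Cadps and Cadps2, which prepare granules for release.

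Neuropeptides are made as long precursors that enter the regulated secretory pathway in the Golgi. The prohormone convertases PC1/3 (Pcsk1) and PC2 (Pcsk2) cut them at pairs of basic residues, carboxypeptidase E (Cpe) removes those residues, and peptidylglycine alpha-amidating monooxygenase (Pam) amidates many of the products. Granins are acidic proteins stored with the peptides in the granule, secretogranin III (Scg3) binds both granule membrane and chromogranin A (Chga), and the CAPS proteins (Cadps, Cadps2) act at the priming step before calcium-triggered release. In arcuate neurons this pathway yields alpha-MSH from Pomc, and in the paraventricular nucleus it yields oxytocin, vasopressin, CRH and TRH.

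The nuclei came from micro-dissected, frozen hypothalamus of adult male C57BL/6J wild-type mice aged 10 to 12 weeks, with no treatment. Sorting kept nuclei that stained for the neuronal protein NeuN. They were sequenced as 1 pooled 10x library, with a second library that read the hashtags, barcoded antibodies that mark a preparation. The files name the 2 hashtags ARC (arcuate nucleus) and PVH (paraventricular hypothalamus), and neither assigns a nucleus to a mouse. There was therefore 1 sample and no biological replicate, and no test was made: every interval given is an exact 95% interval that covers counting error only.

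Of 11409 barcodes, 10170 passed the filters, 3767 carried the ARC hashtag and 3074 the PVH hashtag, 944 carried both and 2385 could not be assigned. Neuronal clusters held 3737 ARC-side nuclei (median 4833 UMIs, unique molecular identifiers that each stand for 1 captured RNA molecule) and 3074 PVH-side nuclei (median 5039), in 13 and 15 clusters. A single cluster of 30 ARC-side nuclei, with a median of 2557 UMIs, carried astrocyte and tanycyte markers and few UMIs of neuronal genes. Clusters are called by a class name with "-like" where marker genes supported it. ARC cluster 2 (537 nuclei) and PVH cluster 1 (485) also passed markers of oligodendrocytes and were left unnamed. Levels are CPM, a gene's UMI count summed over the nuclei of a group and scaled to 1000000 UMIs in all, and the members were kept out of the genes used for clustering.

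The upstream regions of the convertase and granin genes are shown first, because some of them share a regulatory letter string. In RefSeq windows on GRCm38.p6 that run from 250 bases before to 50 bases after each start, 9 of the 10 members had a window (10 windows, 2 of them for Pam). The palindrome TGACGTCA, the full cAMP response element, was present in the windows of 3 members, Scg2, Chgb and Pcsk1, against 1.79% of all 32851 windows. The shorter TGACGT, which the palindrome contains, was present in these 3 and in Chga, and in 7.51% of all windows with both strands read. TATAAA was present in the Chga window alone among the members, against 13.6% of all windows. The stretches below are 30 bases long, on the strand of the gene, with the matched letters in capitals.
Scg2, chr1:79440076-79440105, minus strand: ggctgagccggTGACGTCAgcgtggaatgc
Chgb, chr2:132781559-132781588, plus strand: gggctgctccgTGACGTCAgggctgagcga
Pcsk1, chr13:75089768-75089797, plus strand: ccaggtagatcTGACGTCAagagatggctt
Chga, chr12:102554885-102554914, plus strand: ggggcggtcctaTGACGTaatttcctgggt
The match began 68 bases before the RefSeq start in Scg2, 72 in Chgb, 78 in Pcsk1 and 44 in Chga. The stretches of Scg2 and Chgb lie inside an exon of a longer GENCODE M21 transcript, and those of Pcsk1 and Chga lie outside any exon of the gene. These are matches of letters and not measured binding.

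The members differ widely in the size of the gene, which matters for nuclear RNA because unspliced transcripts carry the introns. In GENCODE M21 on GRCm38, Scg2 spans 5.45 kb (chr1:79434669-79440120), Chga 10.1 kb (chr12:102554969-102565028) and Chgb 13.8 kb (chr2:132781278-132795079). Scg3 spans 40.9 kb (chr9:75643189-75684056), Pcsk1 45.0 kb (chr13:75089826-75134861) and Cpe 100.5 kb (chr8:64592542-64693054). Pcsk2 spans 270.1 kb (chr2:143546156-143816285), Pam 300.5 kb (chr1:97795114-98095646), Cadps 450.5 kb (chr14:12372563-12823079) and Cadps2 576.6 kb (chr6:23262773-23839421). Introns make up 53.9% of the Scg2 span and 98.3% of the Cadps2 span. Levels are for this reason compared between groups of nuclei for 1 gene at a time, and not between genes.

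Each member's signal in the neurons was set beside that in barcodes with few genes, which were not shown to lack a nucleus. The 1041 barcodes with at most 800 genes, which the filter removes, had a median of 621 UMIs, against 4833 in ARC-side neurons. They ran from 500 to 1147 UMIs. The matrix holds no barcode under 500 UMIs, so emptier droplets are not among them. They still held 3.39 UMIs of Oxt per barcode (oxytocin, a transcript of few hypothalamic neurons), beside 2.93 in the average ARC-side neuron. Oxt was seen in 88.0% of them, in 92.7% of ARC-side neurons and in 92.8% of 153 non-neuronal nuclei found when all nuclei were clustered without the hashtag step. Oxt UMIs were thus found in most barcodes of each of these groups, at a like number in ARC-side neurons and few-gene barcodes. PVH cluster 11 stood apart at 1984 CPM of Oxt, while the other PVH-side clusters lay between 460 and 615.

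The granins stood closest to that level. Scg2 was at 1.21 UMIs per ARC-side neuron and 1.02 per barcode with few genes, a ratio of 1.18 (interval 1.10 to 1.26). Chgb was at 0.406 and 0.335 UMIs, a ratio of 1.21 (1.08 to 1.37), and Chga at 0.355 and 0.239, a ratio of 1.48 (1.30 to 1.71). Scg3 was at 0.398 and 0.195, a ratio of 2.04 (1.76 to 2.38). A neuron with a median depth several times that of a few-gene barcode therefore carried little more Scg2 or Chgb than the barcode did.

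The processing enzymes and the CAPS genes stood well above it. Cpe was at 0.962 UMIs per ARC-side neuron and 0.323 per barcode with few genes, a ratio of 2.98 (2.67 to 3.34). Pcsk1 was 4.71 times higher in the neurons (3.52 to 6.44), Pam 4.81 times (4.34 to 5.35) and Pcsk2 8.36 times (7.19 to 9.78). Cadps was 14.6 times higher (12.8 to 16.7) and Cadps2 15.8 times (12.8 to 19.9), beside 11 for Snap25, a neuronal SNARE protein gene, and 0.862 for Oxt. In all, 7 of the 10 members were at least 1.5-fold higher per neuron, while 97.1% of the 7436 genes with at least 500 UMIs were. The 3 members under that fold were Scg2, Chgb and Chga. The median log2 ratio was 1.91 over the members and 3.24 over all those genes. Against PVH-side neurons Chga passed as well, at 1.53-fold (1.33 to 1.76).

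**Figure D1:**
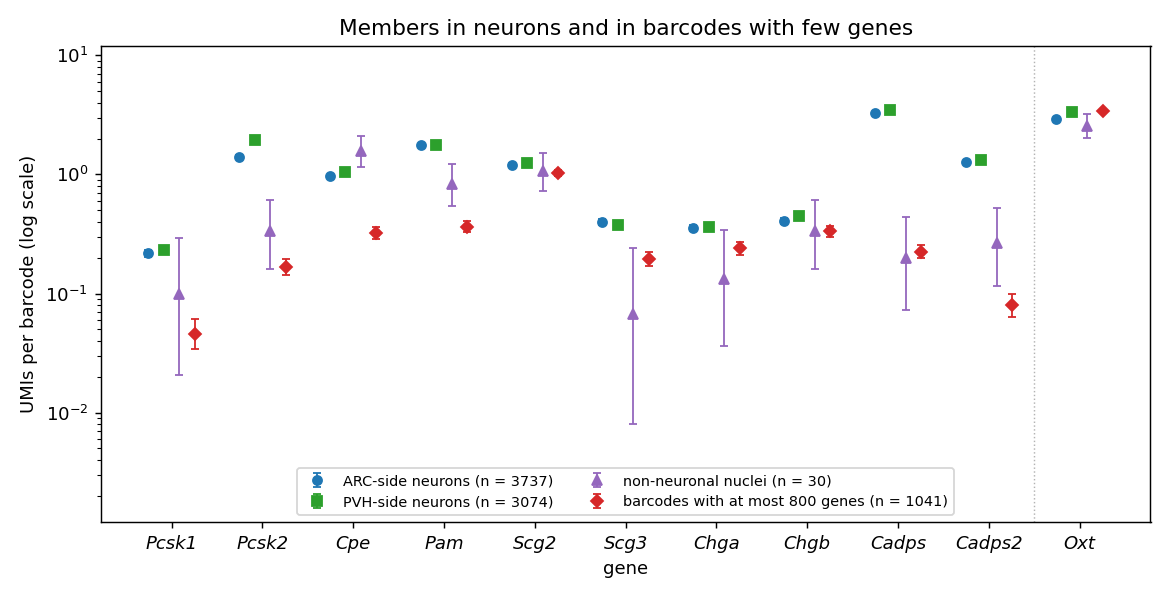
UMIs per barcode (log scale) of the 10 members and of Oxt in ARC-side neurons (circles), PVH-side neurons (squares), 30 non-neuronal nuclei (triangles) and 1041 barcodes with at most 800 genes (diamonds), with exact 95% Poisson intervals. The diamonds of Scg2 and Chgb lie just under the neurons, those of Pcsk2, Cadps and Cadps2 lie far below them, and Oxt is at a like level in all 4 groups.

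The order of these ratios followed the size of the gene. Over the 10 members, Spearman's rho between span and ratio was 0.96, a description over genes that share the same libraries. Over the 7433 genes with at least 500 UMIs and a position in the annotation, rho was 0.52. Of 1397 such genes shorter than 15 kb, 14.2% were under 1.5-fold and the median ratio was 4.85, and of 6036 longer genes 0.315% were under it and the median was 10.2. Scg2, Chga and Chgb, with 5.45, 10.1 and 13.8 kb, are in the short group and lie below its median. The part of gene size, RNA level and RNA place in these ratios was not tested.

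**Figure D2:**
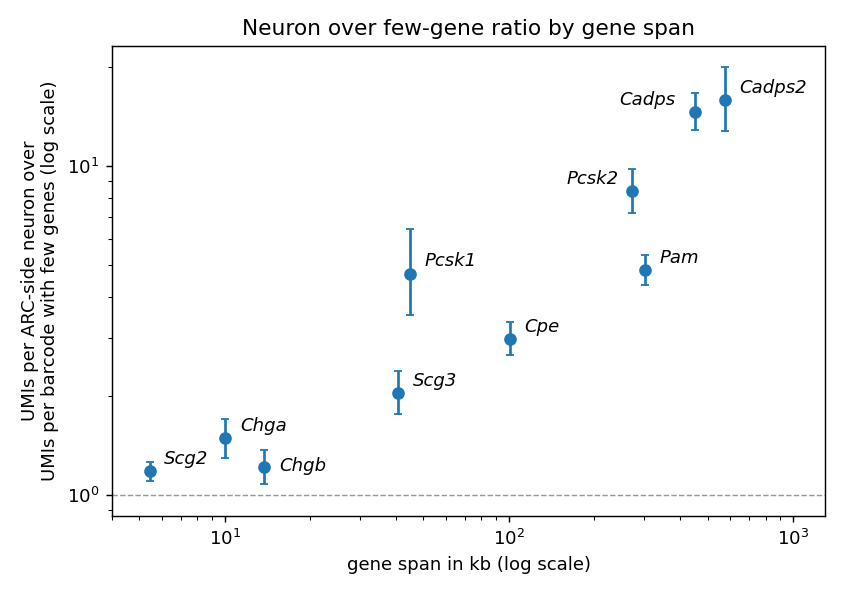
Ratio of UMIs per ARC-side neuron to UMIs per barcode with few genes (log scale, with 95% intervals) against the span of the gene in kb (log scale) for the 10 members. The 3 shortest genes, Scg2, Chga and Chgb, have ratios from 1.18 to 1.48 and the 2 longest, Cadps and Cadps2, ratios of 14.6 and 15.8.

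Within the neurons the members also differed in their rise with depth. From ARC-side neurons with 1000 to 3000 UMIs (88 nuclei) to those with 7000 to 12000 (438 nuclei), the median depth rose 3.27-fold. Over this range Cadps rose 5.26-fold, from 1.08 to 5.67 UMIs per nucleus, and Snap25 4.68-fold. Chga rose 1.77-fold, Scg3 1.88-fold, Scg2 2.14-fold and Chgb 2.36-fold, and Oxt 1.2-fold. Cpe rose 3.22-fold, Pcsk2 3.59-fold, Pam 3.89-fold, Pcsk1 3.91-fold and Cadps2 7.03-fold. Each granin and Oxt thus rose less than the depth, Cpe and Pcsk2 rose near it, and the other members and Snap25 more. These folds carry no intervals, and the shallowest bin held few UMIs, such as 22 of Chgb and 9 of Pcsk1.

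**Figure D3:**
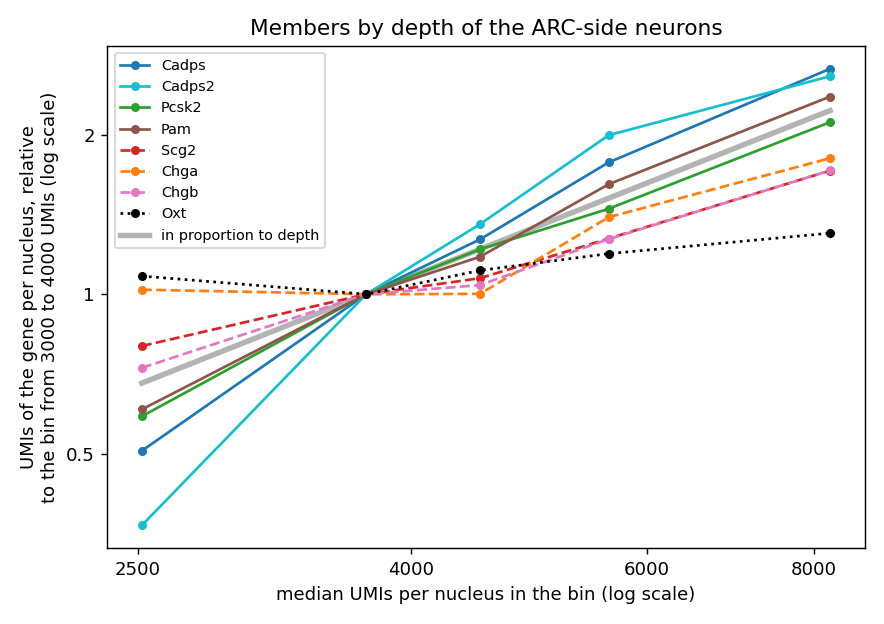
UMIs per nucleus of 7 members and Oxt in 5 bins of ARC-side neurons by depth (both axes on log scales), each relative to its value in the bin from 3000 to 4000 UMIs, with the grey line in proportion to the median depth. Cadps and Cadps2 rise more steeply than the grey line, Scg2, Chga and Chgb less steeply, and Oxt least.

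Taking the Oxt of ARC-side neurons as all free and the mix of free RNA as that of the few-gene barcodes, free RNA would make up 73.2% of the Scg2 UMIs of these neurons, 71.1% of Chgb, 58.1% of Chga and 42.2% of Scg3. The same sum gave 28.9% for Cpe, 18.3% for Pcsk1, 17.9% for Pam, 10.3% for Pcsk2, 5.91% for Cadps and 5.44% for Cadps2. With Avp (vasopressin) in place of Oxt the values ran from 6.76% for Cadps2 to 90.9% for Scg2. Avp was at 466 CPM in ARC cluster 2, where it passed as a marker, and at 244 to 316 in the other neuronal ARC clusters. Whether all Avp of ARC-side neurons was free was not tested, and the sum is too high where it was not. Few-gene barcodes can also hold RNA of damaged nuclei, which this sum counts as free.

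The 30 non-neuronal nuclei gave a second view. Against them, 4 members were at least 1.5-fold higher in neurons of both hashtags and 2 were lower, which is 6 of 10 past that fold in either direction, against 59.3% of 9574 genes. The median log2 ratio was 0.44 over the members and 0.31 over those genes. Cadps was at 633 CPM in neurons and at 68.3, from 6 UMIs, in non-neuronal nuclei, 9.26-fold (4.26 to 25.2). Pcsk2 was at 311 and 114, 2.73-fold (1.49 to 5.70). Cadps2 was 2.68-fold higher (1.36 to 6.20). Scg3 was 3.22-fold higher, with an interval from 0.890 to 26.6 because the non-neuronal nuclei held 2 UMIs. Against the 153 non-neuronal nuclei of the clustering without the hashtag step, Cadps was 2.81-fold higher (2.35 to 3.39). There Scg3 was 1.63-fold higher (1.09 to 2.54), Pcsk2 2.91-fold (2.24 to 3.84) and Cadps2 3.71-fold (2.66 to 5.33). Of the 10 members, 7 were at least 1.5-fold higher there and none lower. The share of all genes was not worked out for these nuclei, so the count is not read as a trait of the members.

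Cpe and Scg2 were lower in neurons by CPM, which is a share of the UMIs and not a number per nucleus. The 30 non-neuronal nuclei had a median of 2557 UMIs, against 4914 in the 6811 neurons. They held 32 UMIs of Scg2 and 47 of Cpe, and the neurons 8342 and 6840. The part of depth in these ratios was not tested. Cpe, which astrocytes also express, was at 189 CPM in the neurons and at 535 CPM in the 30 nuclei, a ratio of 0.354 (0.266 to 0.482). Scg2 was at 231 and 364 CPM, a ratio of 0.634 (0.448 to 0.927). Against the 153 non-neuronal nuclei of the clustering without the hashtag step, Cpe was at 0.819 (0.685 to 0.987) and Scg2 at 1.08 (0.896 to 1.31), so the direction of Scg2 turned with the choice of nuclei. Pcsk1 was at 1.24 against the 30 nuclei, which held 3 of its UMIs, and at 3.76 (1.72 to 10.3) against the 153.

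Shares of nuclei told the same for the granins. At least 1 UMI of Scg2 was found in 67.5% of ARC-side neurons (66.0 to 69.0), in 70% of the 30 non-neuronal nuclei (50.6 to 85.3) and in 58.6% of few-gene barcodes, at median depths of 4833, 2557 and 621 UMIs. For Chgb the shares were 32.2%, 30% (14.7 to 49.4) and 26.0%. Both neuronal shares lay inside the intervals of the non-neuronal shares, and no expression is read from them. Cadps was found in 91.1% of ARC-side neurons and 13.3% of the non-neuronal nuclei, Pcsk2 in 55.7% and 16.7%, and Pcsk1 in 17% and 10%. When each nucleus was thinned to 1000 UMIs, which left out 1 PVH-side neuron, the shares in ARC-side neurons were 44.9% for Cadps, 22.0% for Pcsk2, 21.6% for Scg2, 17.7% for Cadps2 and 3.72% for Pcsk1. In the non-neuronal nuclei thinned alike, Cadps was in 3.33%, Pcsk2 in 6.67% and Scg2 in 40% (22.7 to 59.4).

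The first comparison set ARC-side neurons beside PVH-side neurons. None of the 10 members differed by 1.5-fold, whereas 8.59% of the 14094 genes with at least 100 UMIs did. The median log2 ratio was -0.01 over the members and 0.05 over all those genes. Pcsk2 was the member furthest apart, at 271 CPM on the ARC side (264 to 278) and 358 on the PVH side (349 to 367), a ratio of 0.756 (0.729 to 0.785). Scg3 was at 76.7 and 69.3 CPM, a ratio of 1.11 (1.02 to 1.2), and Pam at 338 and 324, a ratio of 1.04 (1.01 to 1.08). The direction of these 2 small ratios turned at a hashtag quantile of 0.99, with log2 ratios of -0.14 for Scg3 and -0.09 for Pam, and that of Pam also without the clusters with oligodendrocyte markers. The log2 ratio of Pcsk2 kept its direction under all 16 alternatives, between -0.47 and -0.32.

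For the other 7 members the interval of the ratio included 1. Pcsk1 was at 41.8 and 43.0 CPM (ratio 0.973, 0.879 to 1.08) and Cpe at 185 and 194 CPM (0.956, 0.911 to 1.00). Scg2 was at 233 and 229 CPM, Chga at 68.4 and 67.1, and Chgb at 78.3 and 81.5. Cadps was at 631 and 635 CPM and Cadps2 at 243 and 244. With 1 pooled library the spread between mice is unknown, so that a ratio such as that of Pcsk2 cannot be set against it. In the joint clustering of both hashtags, 3 neuronal clusters held at least 50 nuclei of each side, and within them 3 of 30 ratios of a member were past 1.5-fold. Of the 27 that rested on at least 100 UMIs 2 were past it, against 5.6% of 16550 such ratios of all genes. Cadps2 in the joint dopaminergic-like cluster, led by Cgnl1 and Has2, was at 92.2 CPM on the ARC side (322 nuclei). On the PVH side (186 nuclei) it was at 170 CPM, a ratio of 0.543 (0.430 to 0.687). This cluster need not match the PVH-side dopaminergic-like class of the class comparisons (cluster 9, led by Nostrin), which was at 266 CPM of Cadps2. Unnamed PVH cluster 7 shared the leading gene 9130024F11Rik with the joint cluster and was at 163 CPM. Pcsk1 was at 43.4 and 22.1 CPM in the cluster led by Lhx8 and Lef1 (1.97, 1.40 to 2.78). The third, Pcsk1 in the joint dopaminergic-like cluster, was at 0.515 with an interval that included 1 (0.235 to 1.13).

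Members were past 1.5-fold more often between classes of neurons than between the sides. Over all genes with at least 500 UMIs, 5.3% to 15.1% were past it by class. Between the sides it was 8.59% of the genes with at least 100 UMIs. Over 7 ARC-side and 2 PVH-side classes, 18 of the 90 ratios of a member to the other neurons of the same hashtag were past 1.5-fold in either direction. Of these, 6 were ratios of Pcsk1, 5 of Pcsk2, 6 of Cadps2 and 1 of Pam. Cpe, Scg2, Scg3, Chga, Chgb and Cadps passed in no class. Without ARC cluster 2 and PVH cluster 1, which carry oligodendrocyte markers, 19 ratios were past that fold.

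Pcsk1 was highest in POMC-like and KNDy-like neurons on the ARC side. It was at 71.9 CPM in 284 POMC-like nuclei (59.6 to 86.0), 1.84-fold that of the other ARC-side neurons (1.51 to 2.24). KNDy-like neurons, which make kisspeptin, neurokinin B and dynorphin, were at 80.3 CPM (64.2 to 99.3), 2.03-fold (1.60 to 2.54). The intervals of these 2 classes overlapped. VMH-like neurons were at 48.4 CPM, AGRP-like at 43.2, GHRH-like at 30.5 and somatostatin-like at 23.0, the last 0.521 of the other neurons (0.384 to 0.692). Dopaminergic-like neurons were lowest, at 9.66 CPM from 16 UMIs in 320 nuclei (5.52 to 15.7), a ratio of 0.216 (0.123 to 0.352).

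On the PVH side Pcsk1 was highest in Sim1-like neurons, named for the transcription factor of the paraventricular nucleus. It was at 81.8 CPM in the 924 Sim1-like nuclei (74.3 to 89.8) and 24.6 in the other PVH-side neurons, 3.32-fold (2.85 to 3.87). Among the 6 Sim1-like clusters it ran from 36.0 CPM in cluster 4 to 200 in cluster 11 (170 to 233), the cluster in which Oxt was at 1984 CPM. Cluster 12, where Trh passed as a marker, was at 140 CPM (111 to 173), and cluster 14, where Avp was at 1483 CPM, at 90.6 (67.2 to 119). Unnamed cluster 8, led by Sim2 and Crhr2, also carried Sim1 and was at 78.4 CPM. Dopaminergic-like neurons of the PVH side were at 23.6 CPM of Pcsk1, 0.535 of the others (0.329 to 0.824). A UMI of Pcsk1 was found in 29.1% of Sim1-like nuclei, 30.3% of POMC-like, 28.8% of KNDy-like and 4.69% of ARC-side dopaminergic-like nuclei, against 4.32% of few-gene barcodes. The share in dopaminergic-like neurons (median 4822 UMIs) was thus near that of barcodes with a median of 621.

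Pcsk2 had another distribution. It was highest on the ARC side in somatostatin-like neurons, at 530 CPM (500 to 561), 2.23-fold the other neurons (2.09 to 2.38), and in VMH-like neurons, at 520 CPM (478 to 565), 2.03-fold (1.86 to 2.22). The 2 classes did not differ beyond their intervals. POMC-like neurons were at 352 CPM and AGRP-like at 275, neither past 1.5-fold. KNDy-like neurons, high in Pcsk1, were at 164 CPM, 0.594 of the others (0.508 to 0.691). GHRH-like neurons were at 74.9 CPM of Pcsk2 (0.265, 0.210 to 0.330) and dopaminergic-like at 76.7 (0.265, 0.221 to 0.316). Unnamed cluster 5, led by Gm35041, Sema5b and Sytl4, was lowest of all ARC clusters at 61.4 CPM.

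On the PVH side Pcsk2 was at 434 CPM in Sim1-like and 305 in dopaminergic-like neurons, neither past 1.5-fold of the others. It was highest in cluster 13, a glutamatergic cluster without Sim1 led by Gm12828, Edaradd and Lhx9, at 897 CPM (823 to 977). Cluster 11, highest in Pcsk1, was at 145 CPM of Pcsk2 (120 to 174), and only the GABAergic clusters 5 and 7 were lower among the 15, at 114 and 112 CPM. Cluster 13 was in turn at 11.9 CPM of Pcsk1 (4.76 to 24.4). With clusters pooled, Pcsk1 was higher in glutamatergic than in GABAergic clusters on both sides, though not in each cluster. Clusters with more Slc17a6 than Slc32a1, ARC cluster 2 and PVH cluster 1 included, were 1.89-fold (1.64 to 2.18) above the others in Pcsk1 on the ARC side and 3.90-fold (3.04 to 5.07) on the PVH side. For Pcsk2 the ratios were 1.41 (1.33 to 1.49) and 2.53 (2.36 to 2.73). Pcsk1 was at 11.9 to 32.8 CPM in the glutamatergic PVH clusters 1, 3, 13 and 15. The Sim1-like clusters and cluster 8 were at 36.0 CPM or more, and the GABAergic PVH clusters at 6.95 to 23.6. On the ARC side GABAergic cluster 5, at 52.9 CPM, was above VMH-like neurons (48.4) and glutamatergic cluster 7 (44.4). The other GABAergic ARC clusters were at 43.2 CPM or less. Whether the sides differ in the pooled ratios, and the part of class in them, was not tested.

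Within none of the 9 classes was a Pcsk2 UMI more frequent in nuclei with a Pcsk1 UMI than in those without, beyond the intervals. Where few nuclei had a Pcsk1 UMI a difference could hardly show. The share with Pcsk2 among them had an interval from 11.8% to 61.6% in ARC-side and from 38.3% to 85.8% in PVH-side dopaminergic-like neurons. Among POMC-like nuclei 62.8% of those with a Pcsk1 UMI (51.7 to 73.0) and 69.2% of those without (62.3 to 75.5) had a Pcsk2 UMI, at median depths of 5964.5 and 5235.5 UMIs. Among Sim1-like nuclei the shares were 75.8% (70.3 to 80.8) and 84.7% (81.7 to 87.4), at 6104 and 5087 UMIs. There a Pcsk2 UMI was less frequent with a Pcsk1 UMI, beyond the intervals. With nuclei thinned to 1000 UMIs the Sim1-like shares were 32.7% (20.3 to 47.1) and 35.6% (32.4 to 38.8), whose intervals overlap.

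**Figure D4:**
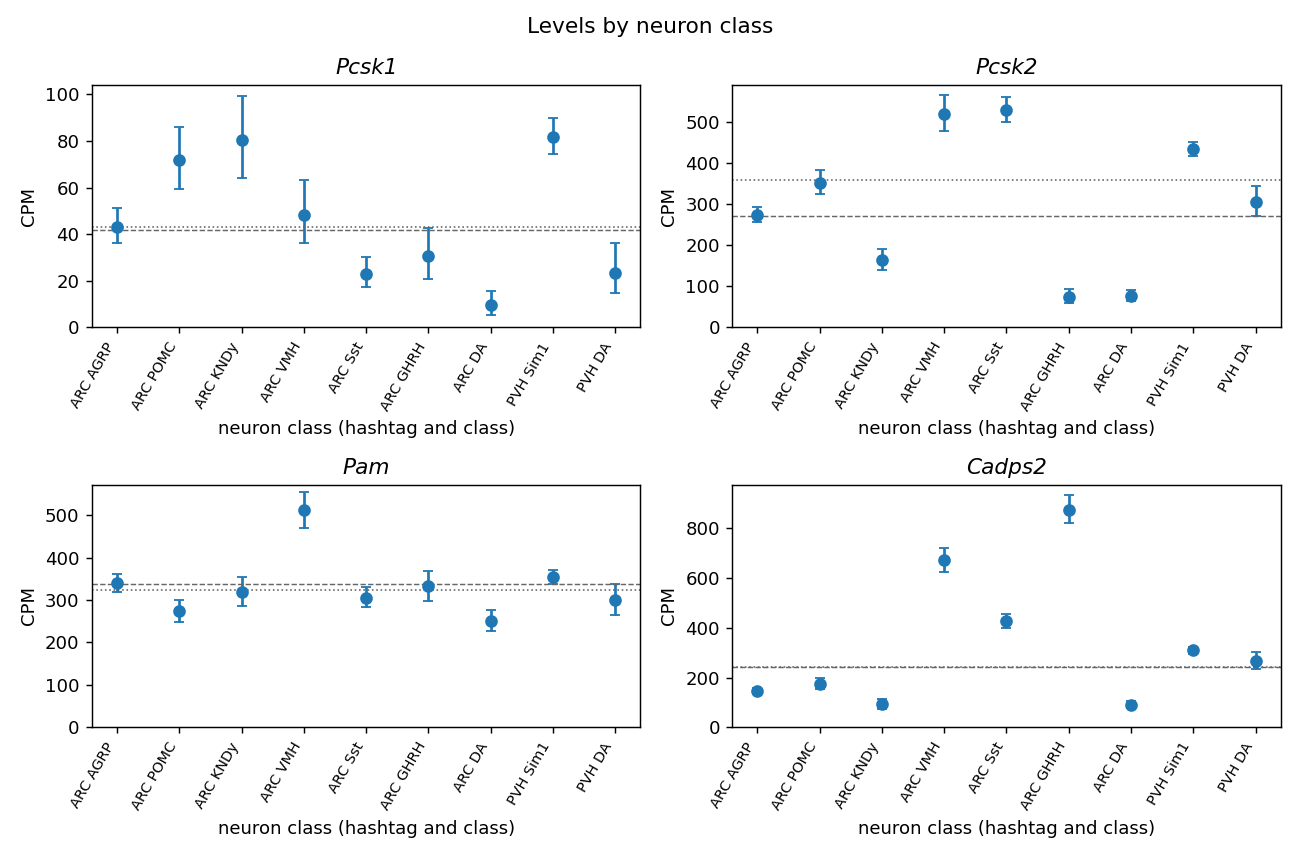
CPM of Pcsk1, Pcsk2, Pam and Cadps2 in 7 ARC-side and 2 PVH-side neuron classes (points, with exact 95% Poisson intervals), with the level of all ARC-side neurons (dashed) and all PVH-side neurons (dotted). Pcsk1 peaks in POMC-like, KNDy-like and Sim1-like neurons, Pcsk2 in VMH-like and somatostatin-like (Sst) neurons, Cadps2 in GHRH-like and VMH-like neurons, and Pcsk1 and Pcsk2 are both low in ARC-side dopaminergic-like (DA) neurons.

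The trimming enzyme Cpe was nearly level. It lay between 171 CPM in AGRP-like (157 to 186) and POMC-like neurons and 199 in dopaminergic-like neurons (178 to 222) on the ARC side, and at 183 in Sim1-like neurons. Over the 13 ARC clusters its highest level was 1.55-fold its lowest (1.23 to 1.96).

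Pam, which amidates peptides, was highest in VMH-like neurons at 511 CPM (470 to 555), 1.56-fold the other ARC-side neurons (1.43 to 1.70). Unnamed cluster 11, led by Tbx19, was at a like level of 507 CPM. Other ARC classes lay between 251 CPM in dopaminergic-like and 339 in AGRP-like neurons, with POMC-like neurons at 273 (249 to 299). On the PVH side the Oxt-rich cluster 11 was at 657 CPM of Pam (603 to 716) and cluster 12 at 571 (512 to 635), while the Avp-rich cluster 14 was at 223 (185 to 266). Clusters 11 and 12, both Sim1-like, were thus the highest PVH clusters in Pcsk1 as well as in Pam.

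No granin passed 1.5-fold in any class. Scg2 ran over the ARC classes from 194 CPM in VMH-like (168 to 221) to 270 in KNDy-like neurons (240 to 304), Scg3 from 55.8 to 84.5, Chga from 52.0 to 93.1 and Chgb from 53.6 to 96.2. In AGRP-like neurons Chgb was at 63.6 CPM and in somatostatin-like neurons at 96.2, with intervals that did not overlap (55.1 to 73.1 and 83.7 to 110). Chga was at 52.5 CPM in Sim1-like neurons and 73.9 in the other PVH-side neurons, a ratio of 0.711 (0.619 to 0.814). The peptide-rich PVH cluster 11 was lowest in Scg2, at 123 CPM (99.8 to 150), and had the highest median depth, 7133.5 UMIs. By the Oxt-based sum free RNA makes up 42.2% to 73.2% of the granin UMIs of ARC-side neurons, and Oxt itself fell from 1241 CPM in the shallowest to 390 in the deepest bin of these neurons. The part of free RNA and depth in the granin levels by class was not tested.

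Cadps and Cadps2, which encode close relatives, differed in spread. Cadps was at 467 CPM in KNDy-like neurons (427 to 510) and up to 762 in VMH-like (711 to 816) and 757 in AGRP-like neurons (727 to 788), with no class past 1.5-fold. Cadps2 was at 876 CPM in GHRH-like neurons (821 to 933), 4.25-fold the other ARC-side neurons (3.95 to 4.57), at 672 in VMH-like (3.09-fold, 2.85 to 3.34) and at 428 in somatostatin-like neurons (1.95-fold, 1.81 to 2.09). It was at 145 CPM in AGRP-like (0.552, 0.500 to 0.609), 92.6 in KNDy-like (0.368, 0.298 to 0.449) and 90.5 in dopaminergic-like neurons (0.352, 0.297 to 0.414). POMC-like neurons were at 175 CPM, a ratio of 0.702 (0.621 to 0.791). Thinned to 1000 UMIs, 48.0% of GHRH-like and 8.44% of dopaminergic-like nuclei held a Cadps2 UMI. On the PVH side it was highest in cluster 15, led by Ros1 and Gpr149, at 658 CPM (578 to 747), and lowest in the Sim1-like cluster 10 at 67.5 (50.1 to 89.1).

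By class, the share of all genes past 1.5-fold gives the scale for these counts. For AGRP-like neurons 1 of 10 members passed (Cadps2, lower) against 11.1% of 7228 genes with at least 500 UMIs, and Cadps2 stayed past that fold under 8 of 15 alternatives, with log2 ratios from -0.92 to -0.53. For POMC-like neurons 1 passed (Pcsk1, higher) against 9.16%. For somatostatin-like neurons 3 passed (Pcsk2 and Cadps2 higher, Pcsk1 lower) against 5.3%. For KNDy-like neurons 3 passed (Pcsk1 higher, Pcsk2 and Cadps2 lower) against 15.1%. For GHRH-like neurons 2 passed (Cadps2 higher, Pcsk2 lower) against 12.8%. For VMH-like neurons 3 passed (Pcsk2, Pam and Cadps2, all higher) against 14.7%. For ARC-side dopaminergic-like neurons 3 passed (Pcsk1, Pcsk2 and Cadps2, all lower) against 10.1%. On the PVH side 1 passed for Sim1-like neurons (Pcsk1, higher) against 7.95% of 6506 genes and 1 for dopaminergic-like neurons (Pcsk1, lower) against 7.75%. Of the other calls by class 3 were lost, each under 1 alternative: Pcsk1 in POMC-like and in KNDy-like neurons with nuclei thinned to 1000 UMIs (log2 ratios of 0.39 and 0.46), and Pam in VMH-like neurons at a hashtag quantile of 0.99 (0.46).

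**Figure D5:**
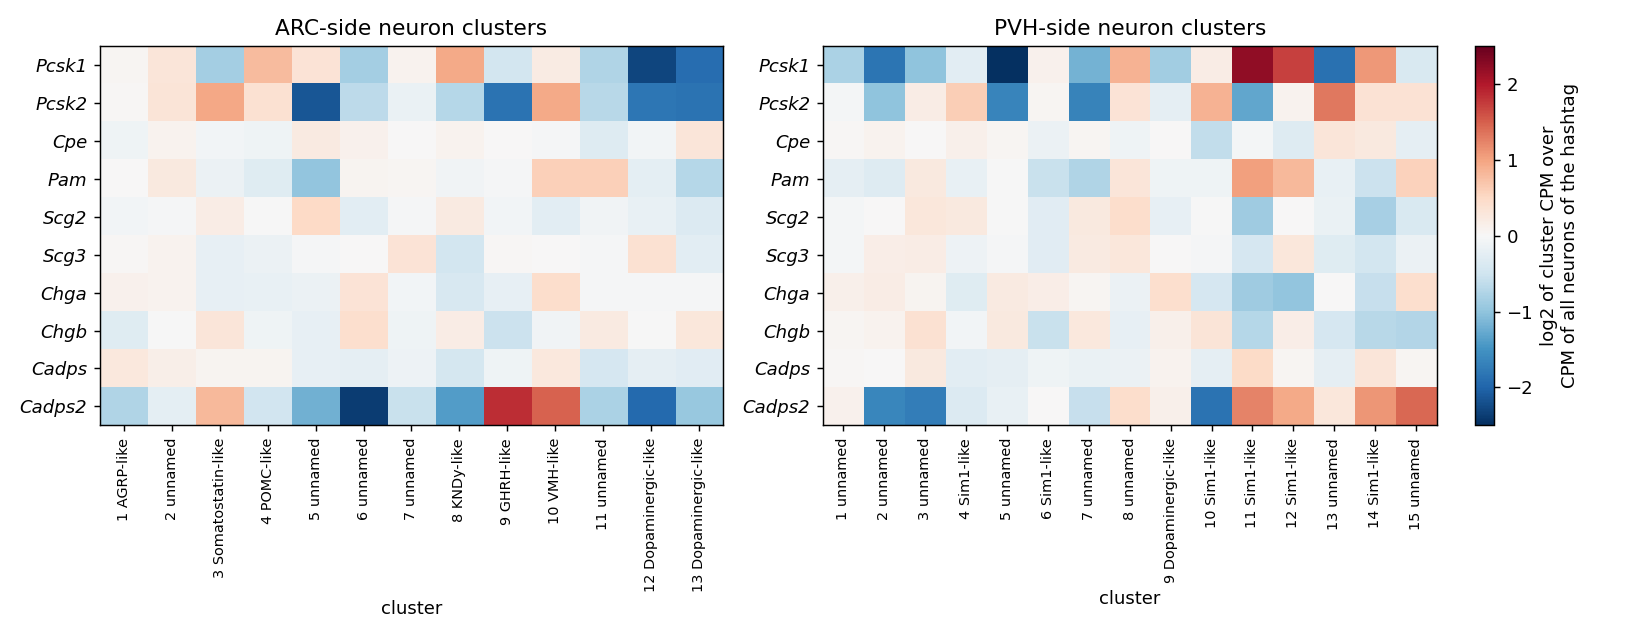
Log2 of the CPM of each member (rows) in each neuronal cluster (columns) over its CPM in all neurons of the same hashtag, for 13 ARC-side and 15 PVH-side clusters, red for higher and blue for lower. Pcsk1, Pcsk2 and Cadps2 change from cluster to cluster, Pam less so, and Cpe, Scg3 and Cadps stay near white.

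Across the 13 ARC clusters, 4 members had a highest level at least 2-fold the lowest, against 35% of 7228 genes. The median log2 spread was 0.91 over the members and 0.83 over those genes. They were Cadps2, 18.6-fold (14.3 to 24.6) between cluster 9 (GHRH-like) and cluster 6, Pcsk1, 9.41-fold (4.57 to 22.5), Pcsk2, 8.63-fold (6.88 to 11.0), and Pam, 2.99-fold (2.55 to 3.51). Chgb was just under that limit at 1.95-fold (1.42 to 2.71), then Scg3 at 1.80, Chga at 1.79, Scg2 at 1.79, Cadps at 1.63 and Cpe at 1.55. In the order of the 13 clusters, neighbours overlapped in their intervals in all 12 pairs for Pcsk1, Cpe, Cadps and each granin, in 10 pairs for Pam, 9 for Cadps2 and 8 for Pcsk2. A maximum over a minimum grows with counting error, so that a gene with few UMIs spreads more than 1 with many. Across the 15 PVH clusters 7 members were spread by at least 2-fold, against 48.8% of 6506 genes, and the median log2 spread was 1.38 over the members and 0.98 over those genes. The spread was 28.7-fold for Pcsk1 (14.8 to 64.0), 9.75-fold for Cadps2 (7.16 to 13.5), 8.02-fold for Pcsk2 (6.47 to 10.0) and 3.41-fold for Pam (2.87 to 4.07). Of the granins, Chga was spread 2.68-fold (1.49 to 4.92), Scg2 2.54-fold (2.03 to 3.21) and Chgb 2.15-fold (1.32 to 3.70) there. Cpe, at 1.89-fold, Scg3, at 1.67, and Cadps, at 1.66, stayed under that limit.

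Likeness between members was weak. Over the 28 neuronal clusters of both hashtags, Pearson's r of log2(CPM + 1) was highest for Scg2 with Chgb, at 0.49, and Scg2 with Scg3, at 0.48, then for Cadps with Cadps2, at 0.47. It was lowest for Pcsk1 with Chga, at -0.63, and for Chgb with Cadps2, at -0.61. The clusters share 1 library, its free RNA and differing depth, and the values are descriptions. Among 6889 genes with at least 1000 UMIs, the pattern most like that of Pcsk1 was that of 5330434G04Rik (r = 0.74), then Mamld1 and Zfc3h1. For Pcsk2 these were Ano5 (0.67), Prkd1 and Mapk4, for Cpe Shld2 (0.66), Tubb2a and Papss1, and for Pam Astn2 (0.66), Gucy1b1 and Actn4. Chga was most like Sptbn4 (0.82), Syt4 and Hacd1, Chgb like Itm2b (0.74), Resp18 and Sgce, Scg2 like Unc5d (0.76), Negr1 and Peli2, and Scg3 like Gm15336 (0.75), Arhgap26 and Gm15337. Cadps was most like Vps13a (0.74), Flrt3 and Tafa1, and Cadps2 like Hecw2 (0.63), Vps13a and Gm27153. Syt4 and Resp18 are themselves granule proteins. Per ARC-side neuron over few-gene barcode they were at 1.36 (1.19 to 1.56) and 1.13 (1.06 to 1.19), beside 1.48 for Chga and 1.21 for Chgb. The part of free RNA in these likenesses was not tested.

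Other genes of the pathway were taken from 4 lists. Of 8 further genes for processing (Pcsk5, Pcsk6, Pcsk7, Furin, Cpd, Pcsk1n, Scg5 and Qpct), none differed by 1.5-fold between the sides. The proprotein convertases Pcsk5 and Pcsk6 moved by class. Pcsk5 was at 3.84 CPM in AGRP-like neurons and 47.1 in the other ARC-side neurons, a ratio of 0.082 (0.042 to 0.143), and at 10.8 in Sim1-like neurons against 45.1, a ratio of 0.239 (0.179 to 0.314). Pcsk6 was at 71.2 CPM in GHRH-like neurons, 4.35-fold the others (3.34 to 5.60), a class low in Pcsk2. Pcsk1n, whose product proSAAS binds PC1/3, was 1.23-fold higher per ARC-side neuron than per few-gene barcode (1.18 to 1.29), as low a ratio as that of Chgb, and Scg5, the PC2 chaperone 7B2, was 2.58-fold higher (2.38 to 2.81). Pcsk1n and Scg5 are given here after their values were seen.

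Of 6 further granule cargo and membrane genes none differed by 1.5-fold between the sides, and Ptprn2, a granule membrane protein, was 3.10-fold higher in neurons than in the 30 non-neuronal nuclei (2.14 to 4.66). Vgf, a granin-like peptide precursor, was at 36.9 CPM in POMC-like neurons, 1.58-fold the others (1.19 to 2.08), and at 14.2 in KNDy-like neurons (0.567, 0.315 to 0.944). Of 14 genes for granule formation and release, 1 was higher on the ARC side, Sytl4 (granuphilin, 7.73 against 3.53 CPM), and 2 were lower, the synaptotagmins Syt7 (36.3 against 58.8) and Syt10 (19.7 against 32.1). Syt7 was 2.48-fold higher in VMH-like neurons (1.97 to 3.10), where Syt9 was 2.15-fold higher (1.72 to 2.66) and Doc2b 1.85-fold (1.5 to 2.27).

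Of 21 measured peptide precursors, 4 were higher on the ARC side and none lower, namely Pdyn (2.05-fold), Pomc (1.82-fold), Npy (1.57-fold) and Tac2 (1.5-fold). Per barcode, 6 of 18 precursors with at least 100 UMIs were 1.5-fold higher in ARC-side neurons than in few-gene barcodes and 12 were not. Higher by that fold were 7 of 8 processing genes, 3 of 6 cargo genes and 13 of 14 formation genes. Of all 7436 genes with at least 500 UMIs, 97.1% were. Several of the precursors are markers by which the classes were named, so their levels in those classes are not results.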

How the data were processed

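Single-nucleus RNA sequencing gave 1 gene expression library and 1 hashtag library of the same NeuN-positive nuclei. What the authors deposited is a matrix of raw UMI counts, not normalized. The submitters' processing notes name Cell Ranger 5.0, Seurat 4 and mm10, and the matrix header names Cell Ranger 4.0.0. No source used here says whether introns were counted. Clusters and their names were rebuilt, so differences from the study may come from them.

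Barcodes with over 800 but under 5000 genes, a mitochondrial share up to 1% and a total up to 12000 counts were kept, with genes seen in 3 or more nuclei. HTODemux (positive quantile 0.8; Seurat 5.3.0, leidenbase 0.1.32, R 4.3.3) assigned hashtags. Nuclei with 1 hashtag were clustered within each hashtag (scaling to 10000, 2000 variable genes without the members and related lists, 30 components, 20 neighbours, Leiden resolution 0.55). Doublets were removed by hashtag only, so doublets within a hashtag remain. To be named, a cluster had to pass 1.5-fold in 3 markers of a class, the leading one among them, with no other class or glial list passed and none ahead of it among the 10 leading genes. A cluster counted as non-neuronal where the median fold of neuronal markers was under 0.5 and 3 glial markers passed. The glial clause and the few-gene barcodes were set after the data were seen.

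UMIs were summed by group in Python 3.11.15 (numpy 2.4.6, scipy 1.17.1), with exact Poisson, binomial and ratio intervals at 95%. The fold step was tested on simulated data for POMC-like against other ARC-side neurons: of 200 genes changed 3-fold among 7249, 100% were past 1.5-fold, as were 0.298% of unchanged genes. The simulated counts held counting error only, with no spread between mice or nuclei. These shares are therefore not error rates of the real data. Named besides the members are, per list and comparison, up to 5 genes past 1.5-fold, the 3 genes most like each member, and leading genes of clusters. The members and lists were chosen with earlier results of these data known.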

Additional observations from a re-analysis of the deposited data

Results flagged for a closer look

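Nuclei that carried both hashtags entered no comparison of the report. In these 944 nuclei Chga was at 106 CPM, against 67.7 CPM in the nuclei with 1 hashtag, a ratio of 1.57 (interval 1.42 to 1.72). It was picked out because it is a signal in nuclei outside the comparisons that was above the level in the nuclei they use. Of the other 9 members none reached 1.5-fold there, and 6% of 14465 genes with at least 100 UMIs did so in either direction. Of 21 measured peptide precursors 10 were higher by that fold, and the median ratio of that list was 1.495. Among the members Chgb was next at 1.37 (1.25 to 1.49) and Cadps was at 0.970 (0.935 to 1.01). Oxt was at 1155 CPM in the same nuclei and Pcsk1n was 1.88-fold higher than in nuclei with 1 hashtag. The median depth was 5216 UMIs, against 4911.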

How the results depend on the processing

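No member was past 1.5-fold between ARC-side and PVH-side neurons under any of the 16 alternatives tried. The count of members spread by 2-fold over ARC clusters rose from 4 to 7 when nuclei were thinned to 1000 UMIs, which leaves fewer UMIs behind each level, and was 4 or 5 under the others. Of 24 ratios of a member past 1.5-fold, 1 turned its direction: the log2 ratio of Scg2 between neurons and non-neuronal nuclei was -0.66 with the 30 nuclei and 0.15 with all nuclei clustered without the hashtag step. Of 86 ratios within that fold, 42 changed sign under at least 1 alternative, among them 7 of the 10 between the sides. In all, ratios moved beyond their counting interval with no such turn in 170 of 1569 cases and stayed inside it in 1398. Of the 24, 17 stayed past 1.5-fold under all their alternatives. Besides Scg2 and the 4 calls by class named in the report, Cpe and Cadps2 between neurons and non-neuronal nuclei were lost, under 2 and 1 of 9 alternatives. No non-neuronal cluster was found at a resolution of 0.3, with 20 or 50 components, 3000 variable genes, no upper limits or a hashtag quantile of 0.99, so these gave no value for that comparison. Thinned Pcsk1 was at 0 in ARC-side dopaminergic-like neurons and gave no ratio. No paired analysis was possible because both libraries come from 1 pool and no comparison rests on a test between samples. Depth limits Pcsk1 most: 811 UMIs over 3737 ARC-side neurons.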
